A study of Homo sapiens with 7 samples.

Results

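Oxidative phosphorylation subunits are the proteins that make up the respiratory chain complexes and the ATP synthase of the mitochondrial inner membrane. The members were the nuclear genes whose symbol starts with NDUFA, NDUFB, NDUFC, NDUFS, NDUFV, UQCR, COX4, COX5, COX6, COX7, COX8 or ATP5, with the brightest probe set of each gene, by its mean over the 7 arrays, standing for it. Assembly factors, pseudogenes and antisense or divergent transcripts under the same prefixes were left out, as were probe sets with more than 1 gene symbol. There were 74 member genes among the 19775 genes with a probe set of 1 symbol. Complex I supplied 33 of them, complex III 6, complex IV 17 and complex V, the ATP synthase, 18. For 72 members the mean signal reached the minimum used for testing, and 13640 genes of the table did. The members below it were COX7A1 and COX8C. The rule for members used gene names only, with no measured difference, though it was set with earlier results of these data known.

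Complex I takes electrons from NADH at the tip of its matrix arm, passes them to ubiquinone and pumps protons through its membrane arm. Complex III hands the electrons to cytochrome c, complex IV passes them on to oxygen, and the ATP synthase uses the resulting proton gradient to make ATP. Their subunits come from both the nuclear and the mitochondrial genome, and the nuclear ones are scattered over the chromosomes. PC-3 cells, like many cancer lines, both respire and ferment glucose.

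The study asked how PC-3 cells that had crossed an endothelial layer in culture differ from cells recovered from metastases in mice. PC-3 is an established human prostate cancer line, and every line here descends from it, carries luciferase, received no treatment and was grown in DMEM/F12 with 10% serum. The PC-3 sublines were GS672.Ug, recovered from urogenital tissue after PC-3 cells were injected into a vein, and a pair from the liver (GS689.Li) and the left adrenal (GS694.LAd), both recovered after injection of JD549.Ki, a line that had itself come out of a kidney after injection of PC-3. The TEM4-18 sublines were GS683.LALN (left axillary lymph node by its own label, lung by the design text) and JD1203.Lu (lung), recovered after injection of TEM4-18. TEM4-18 itself was obtained in culture, as PC-3 cells that had crossed a layer of lung microvascular endothelial cells. Each of the 5 in vivo sublines had 1 array and TEM4-18 had 2. Each subline stands for 1 recovery from 1 site, and the labels do not say whether the 2 TEM4-18 arrays came from separate cultures. P-values therefore measure only the spread between these arrays. The description of GS694.LAd gives its name as JD549.Ki, while its other labels and the design text call it GS694.LAd. One label of JD1203.Lu names JD549.Ki as its source, so results were also computed with it among the PC-3 sublines. No array labelled only as PC-3 or JD549.Ki is analysed here, and a difference between the PC-3 sublines and TEM4-18 cannot be told apart from a difference between PC-3 and TEM4-18.

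The deposited values were linear MAS5 signals, scaled so that the mean of the middle 96% of probe sets was 1500.2 on every array, and the array medians ran from 239.1 to 297.2. Differences below are on the log2(signal + 46.942) scale with the standard error from limma, and a gene was called at an adjusted p under 0.05 over all 13640 genes. Between the 2 TEM4-18 arrays 573 genes (4.20%) lay at least 2-fold apart, and none of the 72 members did. The epithelial markers KRT8, KRT18, KRT19 and EPCAM and the mesenchymal VIM were all measured above the minimum, and none was called in any of the 4 contrasts. Of 9 endothelial markers 3 were tested, and PECAM1 and ROBO4 were called higher in the PC-3 sublines than in TEM4-18, by 1.19 ± 0.22 and 1.64 ± 0.25. The summed signal of the 9 ran from 3759.9 to 7774.3 in the PC-3 sublines, from 3526.9 to 4570.0 in the TEM4-18 sublines and from 2184.7 to 2461.6 in TEM4-18. CDH5, VWF, TEK, TIE1, CLDN5 and EMCN had mean signals below the minimum. None of 3 tested luminal prostate, 1 tested leukocyte and 4 tested fibroblast markers was called. Their summed signals were not all flat. The 3 luminal markers summed to 2004.2 to 2720.8 in the PC-3 sublines, 1466.6 to 2118.5 in the TEM4-18 sublines and 3412.1 to 3721.4 in TEM4-18. For 6 fibroblast markers the ranges were 12915.0 to 17088.4, 4409.7 to 31633.0 and 17431.3 to 19134.4. For 4 leukocyte markers they were 282.4 to 574.7, 313.7 to 525.9 and 388.7 to 523.0. The part of other cells in the results was not tested.

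Against TEM4-18, none of the 72 members was called in the 5 in vivo sublines as 1 group. The background was the same: limma called 0 of 13640 genes (0.00%) in this contrast. At an unadjusted p under 0.05 there were 1136 genes (8.33%) and 6 members (8.33%). The difference was positive for 50 members (69.4%), against 53.9% of all genes, and the median was 0.10 for the members and 0.03 for all genes. With each array centred on its median, 41 members were positive, and with quantile normalization 52. The differences were small and tightly bounded. The 95% interval stayed within 2-fold either way for 66 members (91.7%), against 65.2% of all genes, and within 1.5-fold for 51 members. The members gave narrow intervals along with a small spread: their median within-group SD was 0.15, against 0.25 for all genes. Their median mean signal was 27669.5, against 1724.8 for all genes, and the part of signal in the spread was not tested.

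Split by parent line, the PC-3 sublines had 3 called members when set against TEM4-18. NDUFB1 and ATP5MJ were called higher, where 2.38% of all genes were called higher, and NDUFV2 was called lower, where 1.00% were. With 72 members tested, 2 and 1 are shares of the same order as the background. At an unadjusted p under 0.05 there were 6 members (8.33%), against 17.8% of all genes. The difference was positive for 46 members, with a median of 0.07 against 0.05 for all genes, and the interval stayed within 2-fold for 65. With each array centred on its median, 33 members were positive, and with quantile normalization 47, so the count depends on which scaling is used. The TEM4-18 sublines had no called member against TEM4-18. There limma called 10 of all genes (0.0733%), and 6 members (8.33%) had an unadjusted p under 0.05, against 9.72% of all genes. The difference was positive for 53 members, with a median of 0.11 against 0.01 for all genes, and the interval stayed within 2-fold for 68. With centred arrays 52 were positive, and with quantile normalization 49. Both contrasts share the TEM4-18 arrays. Between the groups of sublines, PC-3 sublines over TEM4-18 sublines, NDUFV2 was the 1 called member, and 3.76% of all genes were called. In that contrast 34 members had a positive difference, with a median of -0.02 against 0.05 for all genes. With centred arrays 22 did, and with quantile normalization 37. An unadjusted p under 0.05 was found for 10 members (13.9%), against 19.7% of all genes. A p above the threshold does not show that the other members were alike in these lines.

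**Figure D1:**
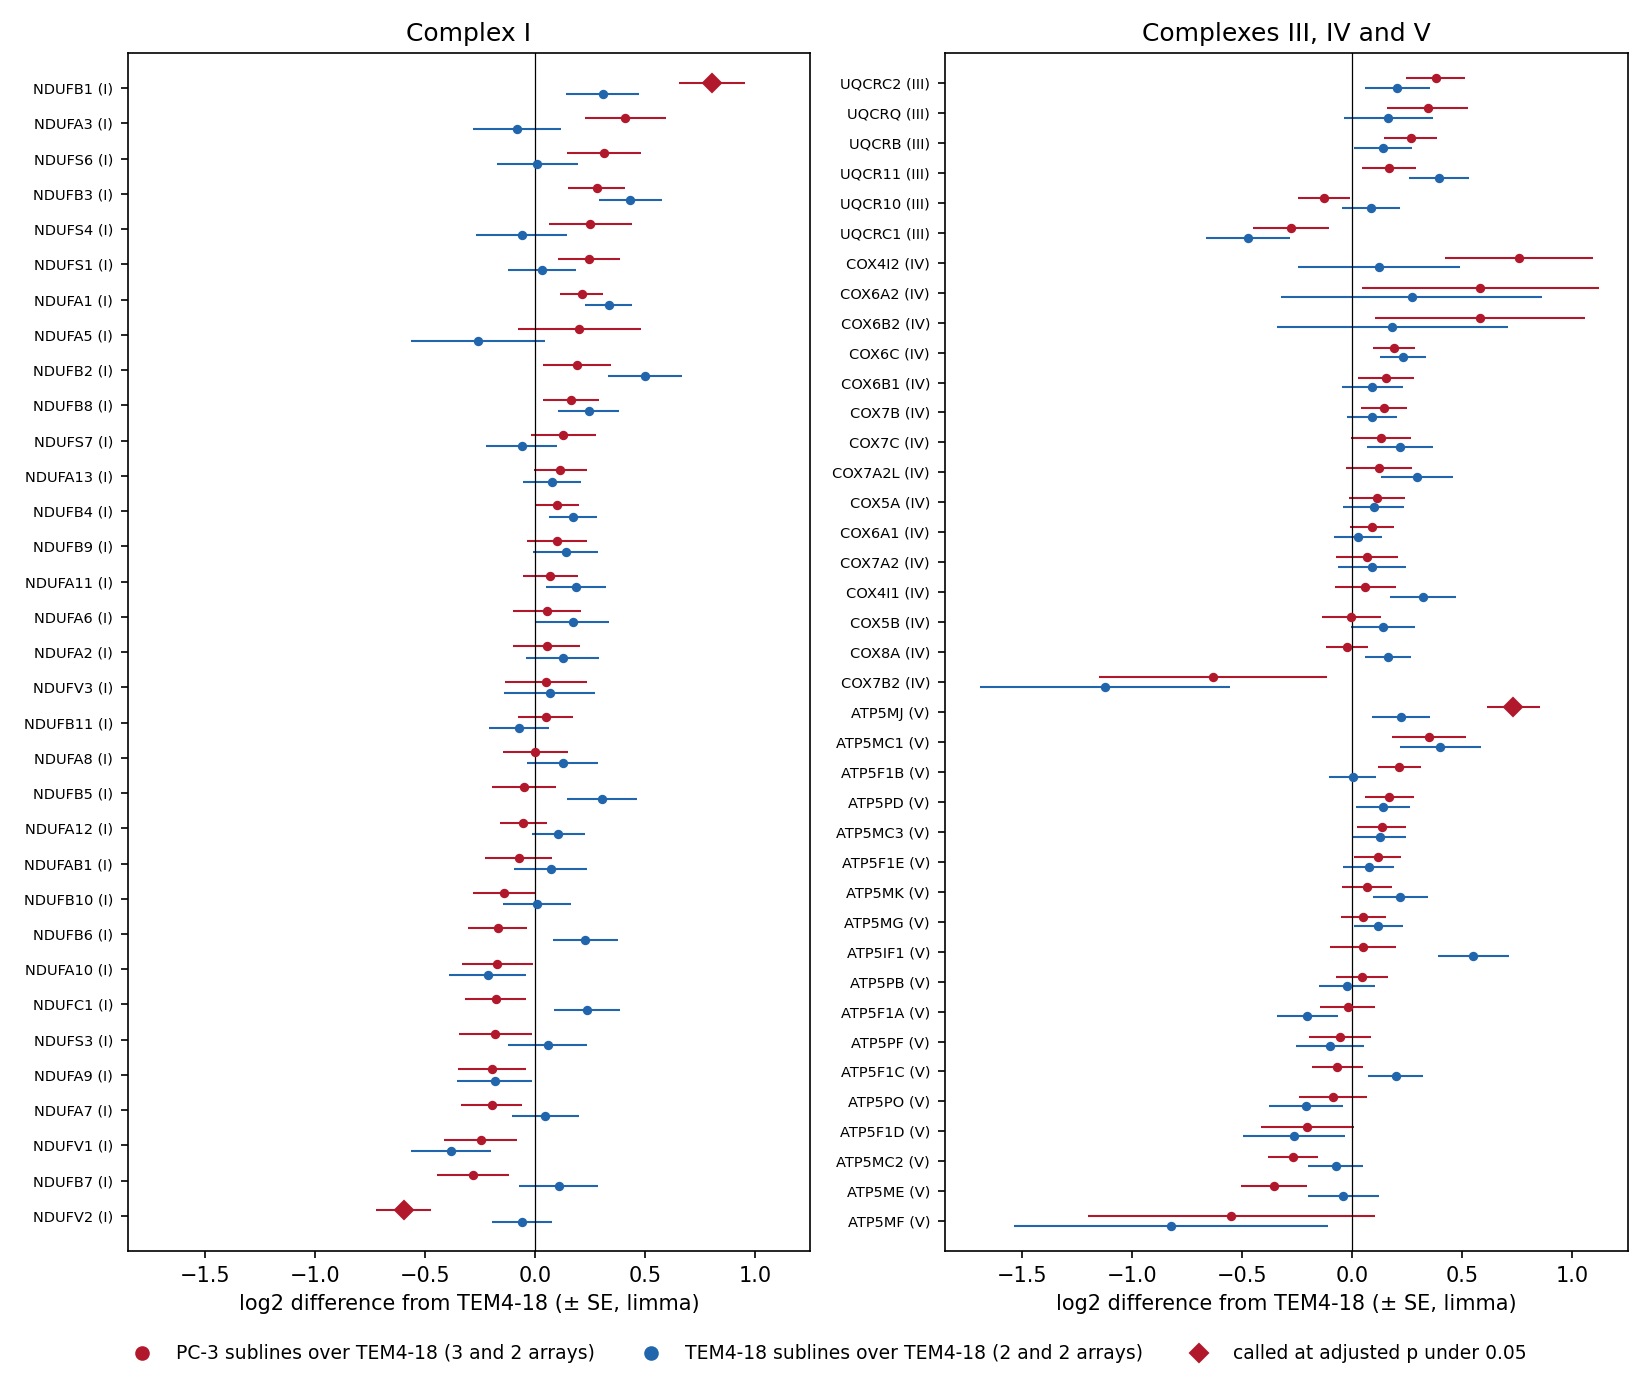
Log2 difference from TEM4-18 (x axis, ± SE from limma) of each of the 72 members tested (rows, sorted within each complex), for the PC-3 sublines (red) and the TEM4-18 sublines (blue), with diamonds for called members. Most points lie within 0.5 of 0, the 3 diamonds are NDUFB1, ATP5MJ and NDUFV2, and the widest error bars belong to the dim probe sets of ATP5MF, COX7B2, COX6A2, COX6B2 and COX4I2.

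NDUFB1, a small accessory subunit in the membrane arm of complex I, had a signal of 31592 in GS672.Ug, while GS689.Li had 34406 and GS694.LAd 39113, against 19430 and 20581 on the TEM4-18 arrays. The TEM4-18 sublines lay between, with 21448 (GS683.LALN) and 28548 (JD1203.Lu). All 3 PC-3 sublines were above every other array, and JD1203.Lu was nearer to them than GS683.LALN was. The difference between the PC-3 sublines and TEM4-18 was 0.80 ± 0.15 (1.74-fold, adjusted p = 0.0239, limma). The TEM4-18 sublines differed from TEM4-18 by 0.31 ± 0.16 (adjusted p = 0.585), and the PC-3 sublines from the TEM4-18 sublines by 0.50 ± 0.15 (adjusted p = 0.113). A second, dimmer probe set of the gene gave 0.35 for the PC-3 sublines. With the mean of both probe sets the difference was 0.58 and the call was lost (adjusted p = 0.0931).

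ATP5MJ, a small membrane subunit of the ATP synthase, had a signal of 42233 in GS672.Ug, while GS689.Li had 48101 and GS694.LAd 51980, against 28273 and 28625 on the TEM4-18 arrays. GS683.LALN had 35365 and JD1203.Lu 31099. The 3 groups did not overlap, and the order was PC-3 sublines, TEM4-18 sublines, TEM4-18. The PC-3 sublines exceeded TEM4-18 by 0.73 ± 0.12 (1.66-fold, adjusted p = 0.0161, limma) and the TEM4-18 sublines by 0.51 ± 0.12, which narrowly missed the threshold (adjusted p = 0.0555). The TEM4-18 sublines differed from TEM4-18 by 0.22 ± 0.13 (adjusted p = 0.633). The second probe set of the gene gave 0.51 for the PC-3 sublines over TEM4-18 and 0.15 over the TEM4-18 sublines.

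NDUFV2, a core subunit at the NADH-oxidising tip of complex I that holds an iron-sulphur cluster, ran the other way. Its signal was 19327 in GS672.Ug, while GS689.Li had 15866 and GS694.LAd 16802, against 26864 and 25455 on the TEM4-18 arrays. Of the TEM4-18 sublines, GS683.LALN had 25888 and JD1203.Lu 24340, overlapping the TEM4-18 arrays. The PC-3 sublines were lower than TEM4-18 by a log2 difference of -0.60 ± 0.12 (adjusted p = 0.0357, limma) and lower than the TEM4-18 sublines by -0.54 ± 0.12 (adjusted p = 0.0494). The TEM4-18 sublines differed from TEM4-18 by -0.06 ± 0.14, with a 95% interval from -0.36 to 0.25. Only 1 probe set reports the gene.

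All 3 calls against TEM4-18 needed both TEM4-18 arrays and both JD549.Ki descendants. Without TEM4-18 replicate 1 the adjusted p was 0.254 for NDUFB1, 0.188 for ATP5MJ and 0.362 for NDUFV2, and without replicate 2 it was 0.199, 0.186 and 0.258 in that order of genes. Without GS689.Li it was 0.0842, 0.0699 and 0.123, and without GS694.LAd 0.0988, 0.0758 and 0.131. GS689.Li and GS694.LAd share the parent JD549.Ki. Averaged as 1 line they gave no call, with an adjusted p of 0.086 for NDUFB1, 0.0647 for ATP5MJ and 0.118 for NDUFV2. None was called with the TEM4-18 arrays averaged either (0.253, 0.216 and 0.347 in the same order) or in limma with no intensity trend (0.104, 0.0894 and 0.129). The differences themselves moved little. With 1 of these 4 arrays left out they ran from 0.72 to 0.84 for NDUFB1, from 0.66 to 0.74 for ATP5MJ and from -0.64 to -0.54 for NDUFV2. With JD1203.Lu counted among the PC-3 sublines the differences were 0.73, 0.58 and -0.47, and none was called. The NDUFV2 call between the groups of sublines held only without GS672.Ug (adjusted p = 0.0154) among the 7 fits that left out 1 array. Without the others it ran from 0.0721, without JD1203.Lu, to 0.161, without GS694.LAd.

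**Figure D2:**
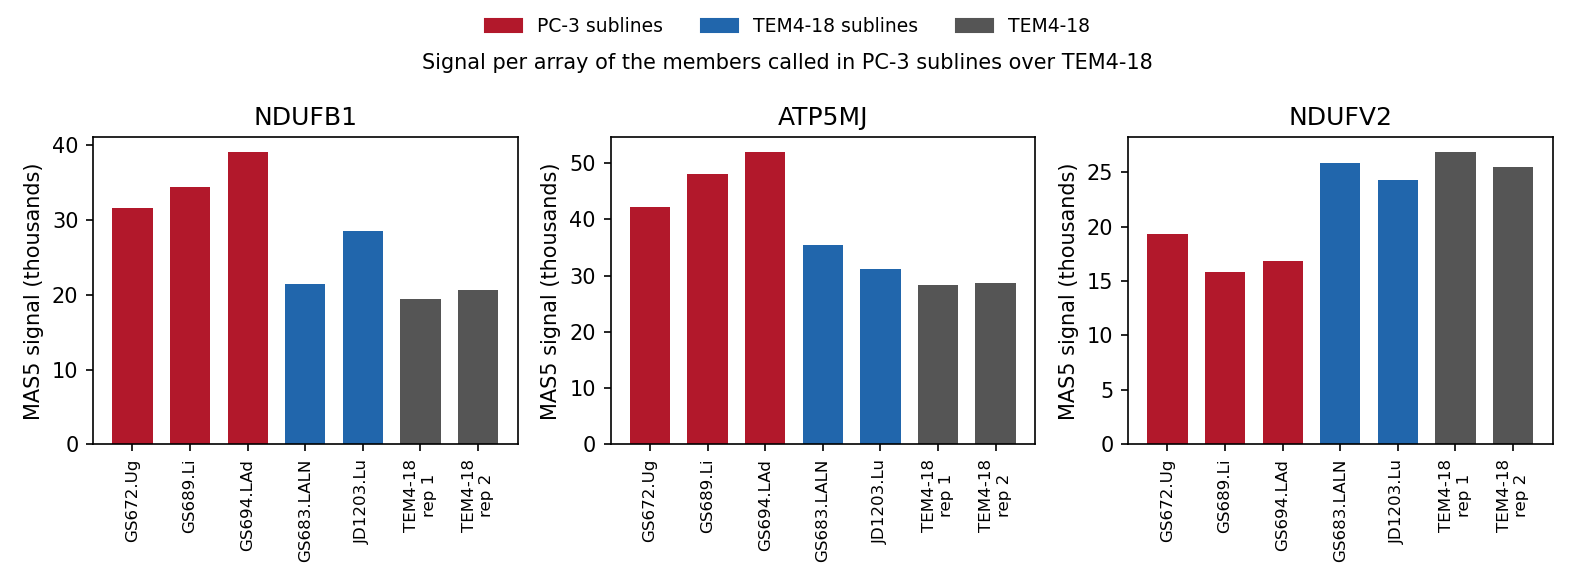
MAS5 signal (bars, y axis from 0) of NDUFB1, ATP5MJ and NDUFV2 on each of the 7 arrays, coloured by group. The PC-3 sublines have the highest bars for NDUFB1 and ATP5MJ and the lowest for NDUFV2.

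NDUFB1 and ATP5MJ are the 2 tested members on chromosome 14, on its long arm, and most of their neighbours had positive differences in the PC-3 sublines too. Of all genes, 55.4% were positive in that contrast and 2.38% were called higher. NDUFB1 starts at position 92116123 and ATP5MJ at 103912288 (GRCh38.p14). The 20 tested genes nearest to NDUFB1, from PSMC1 to LYSET, had a median difference of 0.55 between the PC-3 sublines and TEM4-18, with 16 positive and 3 called higher. The 20 nearest to ATP5MJ, from EIF5 to AHNAK2, had a median of 0.80, with 20 positive and 2 called higher. By line, the median around NDUFB1 was 0.33 in GS672.Ug, 0.58 in GS689.Li, 0.66 in GS694.LAd, 0.09 in GS683.LALN and -0.01 in JD1203.Lu, where NDUFB1 itself stood at 0.51. The median around ATP5MJ was 0.49 in GS672.Ug, 0.94 in GS689.Li, 1.00 in GS694.LAd, 0.04 in GS683.LALN and -0.02 in JD1203.Lu. In the TEM4-18 sublines together the medians were 0.03 around NDUFB1 and -0.07 around ATP5MJ. Over chromosome 14 as a whole, 63 of 448 tested genes were called higher in the PC-3 sublines and 66 were called lower, in separate stretches. The shares of all genes were 2.38% and 1.00%. Around NDUFV2, on the short arm of chromosome 18 from position 9102699, the 20 neighbours had a median of 0.03 and none was called. The part of the chromosome in the members' differences was not tested.

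**Figure D3:**
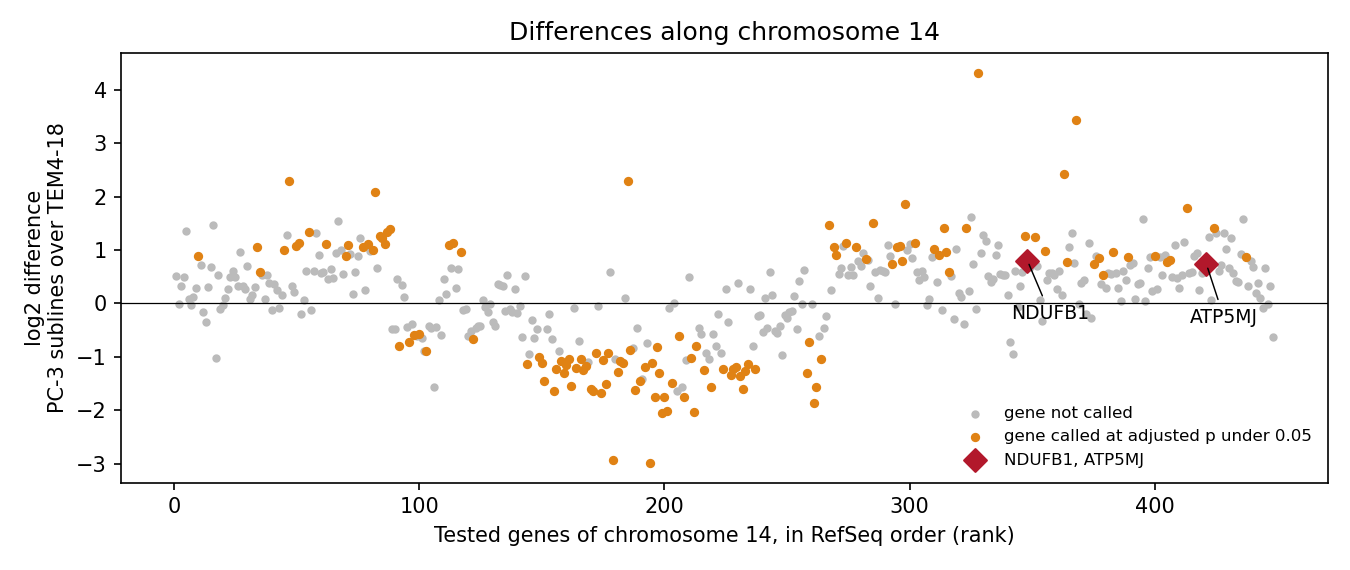
Log2 difference of the PC-3 sublines over TEM4-18 (y axis) for the 448 tested genes of chromosome 14 in RefSeq order (x axis, rank), with called genes in orange and the members NDUFB1 and ATP5MJ as red diamonds. Most genes called higher lie towards both ends of the order and most genes called lower in the middle, and both members sit among positive neighbours in the last stretch.

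The promoters of these 3 members are shown because NDUFB1 and ATP5MJ were higher together and NDUFV2 was lower, and those of COX5B and ATP5PF because they hold letters typical of genes for respiratory subunits. COX5B is a common subunit of complex IV and ATP5PF a subunit of the peripheral stalk of the ATP synthase. Each window runs from 250 bases before to 50 bases after a RefSeq start (GRCh38.p14), written 5′ to 3′ on the gene's strand. The 4 motifs searched on both strands were GCGCATGC (core of the site of NRF1, a regulator of respiratory genes), CCGGAAG (core of the ETS site that GABP binds), AAGATGGC (core of the YY1 site) and TATAAA. Capitals mark every match, and a match on the opposite strand reads as the reverse complement. The windows are chr14:92121657-92121956 (minus strand) for NDUFB1, chr14:103921480-103921779 (minus) for ATP5MJ, chr18:9102449-9102748 (plus) for NDUFV2, chr2:97645812-97646111 (plus) for COX5B and chr21:25735005-25735304 (minus) for ATP5PF.
NDUFB1: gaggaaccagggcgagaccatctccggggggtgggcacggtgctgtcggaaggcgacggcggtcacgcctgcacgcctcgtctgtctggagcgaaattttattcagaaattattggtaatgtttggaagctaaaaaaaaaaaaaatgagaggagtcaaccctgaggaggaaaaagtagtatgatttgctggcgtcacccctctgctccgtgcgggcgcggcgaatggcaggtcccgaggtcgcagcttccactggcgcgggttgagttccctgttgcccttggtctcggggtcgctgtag
ATP5MJ: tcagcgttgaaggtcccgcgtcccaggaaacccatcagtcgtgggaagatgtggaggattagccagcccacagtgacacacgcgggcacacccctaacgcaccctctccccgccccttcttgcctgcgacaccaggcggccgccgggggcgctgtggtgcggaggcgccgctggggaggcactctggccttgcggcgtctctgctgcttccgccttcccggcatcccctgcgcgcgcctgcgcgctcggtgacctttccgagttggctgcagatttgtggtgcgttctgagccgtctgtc
NDUFV2: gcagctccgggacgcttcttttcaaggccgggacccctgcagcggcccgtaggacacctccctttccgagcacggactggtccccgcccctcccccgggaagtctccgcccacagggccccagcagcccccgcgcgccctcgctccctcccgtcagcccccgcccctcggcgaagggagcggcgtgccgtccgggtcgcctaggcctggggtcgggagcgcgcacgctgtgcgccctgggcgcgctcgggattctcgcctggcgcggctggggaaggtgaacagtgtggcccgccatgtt
COX5B: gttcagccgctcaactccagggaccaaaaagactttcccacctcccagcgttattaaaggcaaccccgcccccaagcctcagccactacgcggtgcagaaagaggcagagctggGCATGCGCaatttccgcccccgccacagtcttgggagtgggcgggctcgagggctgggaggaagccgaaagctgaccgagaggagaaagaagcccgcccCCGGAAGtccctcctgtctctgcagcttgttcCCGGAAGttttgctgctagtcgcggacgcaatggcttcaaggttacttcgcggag
ATP5PF: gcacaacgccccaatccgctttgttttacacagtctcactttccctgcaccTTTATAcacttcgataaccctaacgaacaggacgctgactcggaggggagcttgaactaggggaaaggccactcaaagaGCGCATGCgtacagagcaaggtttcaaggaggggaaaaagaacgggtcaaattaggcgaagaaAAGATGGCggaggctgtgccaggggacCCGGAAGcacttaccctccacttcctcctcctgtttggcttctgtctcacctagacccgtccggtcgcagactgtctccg
None of the 4 motifs is in the windows of NDUFB1, ATP5MJ or NDUFV2, which says only that these letters are not there. The COX5B window holds 1 NRF1 core and a pair of ETS cores, and this ATP5PF window holds all 4 motifs.

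Of the 74 members, 64 had a RefSeq promoter that was searched. The members on chromosome 8, COX6C, NDUFB9 and UQCRB, were left out of this search, so the shares below do not cover them. The NRF1 core was in the promoters of 12 members (18.8%), against 4.89% of the 15841 protein-coding genes in the table. The YY1 core was in those of 11 members (17.2%), against 4.67%, and the ETS core in those of 18 (28.1%), against 16.5%. TATAAA was in those of 7 (10.9%), against 12.4%. These are shares of promoters that hold the letters, not of sites in use.

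The membrane arm of complex I and its junction, a group in which NDUFA9 and NDUFAB1 were counted, supplied 20 members. Of these, 12 had a positive difference in the PC-3 sublines over TEM4-18 and 16 in the TEM4-18 sublines over TEM4-18. In the PC-3 sublines over the TEM4-18 sublines 5 did. With each array centred on its median these counts were 9, 16 and 3, and with quantile normalization 12, 15 and 6. Of all genes, 55.4%, 51.7% and 55.1% were positive in the same order of contrasts. At an unadjusted p under 0.05 (limma) there were 1 (5%), 3 (15%) and 6 (30%) of the 20. The shares of all genes were 17.8%, 9.72% and 19.7%. NDUFB2 and NDUFB3, accessory subunits, were among the largest positive differences of the TEM4-18 sublines. NDUFB2 had 48981 in GS683.LALN and 34184 in JD1203.Lu, against 28859 and 29032 on the TEM4-18 arrays, a difference of 0.50 ± 0.17 (adjusted p = 0.409, limma). The groups did not overlap, and GS683.LALN was the high one. The 20 tested genes nearest to NDUFB2, on chromosome 7 from HIPK2 to GSTK1, had a median of 0.54 in the same contrast, with 18 positive and none called. In GS683.LALN their median was 0.76, where NDUFB2 stood at 0.76, and in JD1203.Lu 0.37, where it stood at 0.24. NDUFB3 had 18615 and 22173, against 15906 and 14219, a difference of 0.43 ± 0.14 (adjusted p = 0.397). NDUFA1, an X-linked subunit needed for complex I assembly, had 36658, 38112, 37646, 40623 and 40944 in GS672.Ug, GS689.Li, GS694.LAd, GS683.LALN and JD1203.Lu, against 33669 and 31071 in TEM4-18. All 5 sublines were above both TEM4-18 arrays, by 0.26 ± 0.10 (adjusted p = 0.545). NDUFA11, which sits where the membrane arm meets other complexes, differed by 0.11 ± 0.12, with a 95% interval from -0.16 to 0.39.

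NDUFC1, NDUFB6 and NDUFB7, further accessory subunits of the membrane arm, had the lowest differences between the groups of sublines after NDUFV2 and the ATP synthase inhibitor. NDUFC1 had 19188, 16880 and 17766 in the PC-3 sublines, against 21133 and 27064 in the TEM4-18 sublines, a difference of -0.42 ± 0.14 (adjusted p = 0.139, limma). NDUFB6 differed by -0.40 ± 0.13 (adjusted p = 0.146) and NDUFB7 by -0.39 ± 0.16 (adjusted p = 0.23). The second probe set of NDUFB7, a dim one, gave 0.57, and with the mean of both the difference was 0.09, so its direction depends on the probe set. On the probe sets used the 2 groups did not overlap in any of the 3, and JD1203.Lu was the highest subline in each. The 3 were named for their low values in this contrast, so the lack of overlap is no separate evidence. NDUFA3 lay on the other side, at 15306, 16138 and 18762 in the PC-3 sublines, against 13969 and 10053 in the TEM4-18 sublines, a difference of 0.49 ± 0.18 (adjusted p = 0.185). NDUFB9, the member of complex I with the highest mean signal, differed from TEM4-18 by 0.10 ± 0.14 in the PC-3 sublines and 0.14 ± 0.15 in the TEM4-18 sublines.

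At the NADH-oxidising end of complex I, 6 of 10 members had a positive difference in the PC-3 sublines over TEM4-18 (3 with centred arrays). In the TEM4-18 sublines 7 of 10 did (7 with centred arrays). With quantile normalization there were 6 in each. NDUFV1, which binds NADH and the flavin and pairs with NDUFV2, had 15443, 16246, 11979, 11764 and 14700 in GS672.Ug, GS689.Li, GS694.LAd, GS683.LALN and JD1203.Lu, against 17408 and 16885 in TEM4-18. All 5 sublines were below both TEM4-18 arrays, with a difference of -0.30 ± 0.16 and a 95% interval from -0.66 to 0.06 (adjusted p = 0.635, limma). Between the groups of sublines NDUFV1 differed by 0.13 ± 0.16, where NDUFV2 differed by -0.54 ± 0.12. The 3 members at the quinone end, NDUFA5, NDUFS3 and NDUFS7, had differences from -0.18 to 0.20 in the PC-3 sublines and from -0.26 to 0.06 in the TEM4-18 sublines over TEM4-18.

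Complex III had 6 members, and none was called in any contrast. At an unadjusted p under 0.05 there were 0 in the 5 sublines, 1 in the PC-3 sublines and 2 in the TEM4-18 sublines over TEM4-18, and 0 between the groups of sublines. The shares of all genes were 8.33%, 17.8%, 9.72% and 19.7% in that order. UQCRC1 and UQCRC2, its core proteins, lay on opposite sides of TEM4-18 on the probe sets used. UQCRC1 had 27338, 29233, 33277, 21271 and 32032 in the 5 sublines, in the order used above, against 37640 and 34839 in TEM4-18, a difference of -0.36 ± 0.17 (adjusted p = 0.625, limma). UQCRC2 had 18633, 14537, 16646, 14523 and 14732, against 13002 and 12390, a difference of 0.31 ± 0.14 (adjusted p = 0.606). On these probe sets all 5 sublines were below TEM4-18 for UQCRC1 and above it for UQCRC2. The second probe set of UQCRC2, nearly as bright, gave a difference of 0.13. There GS689.Li (9376) was below both TEM4-18 arrays (10989 and 11678), and GS683.LALN (11669) lay between them. UQCR11, a small subunit, had 31954 and 33698 in the TEM4-18 sublines, against 25993 and 23982 in TEM4-18, a difference of 0.39 ± 0.14 (adjusted p = 0.41). With the mean of its probe sets that difference was -0.11. UQCRB, the member of complex III with the highest mean signal, differed by 0.22 ± 0.12 in the 5 sublines.

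In complex IV all 10 common subunits had a positive difference in the 5 in vivo sublines, from 0.05 to 0.21 with a median of 0.11. None was called, and 1 had an unadjusted p under 0.05, where 8.33% of all genes did. With each array centred on its median 8 of the 10 were positive, and with quantile normalization 10. The median within-group SD over all members was 0.15. COX6C, with the highest mean signal of the complex, had 83820, 72995, 82543, 81557 and 82343 in the 5 sublines, against 68194 and 71487 in TEM4-18, a difference of 0.21 ± 0.09 (adjusted p = 0.591, limma). All 5 sublines were above both TEM4-18 arrays, GS689.Li least so. In the PC-3 sublines alone 8 of the 10 were positive (5 with centred arrays), in the TEM4-18 sublines 10 (10 with centred arrays). With quantile normalization there were 9 in each. COX7A2L, which joins complexes III and IV in supercomplexes, differed by 0.19 ± 0.15 in the 5 sublines, with a 95% interval from -0.15 to 0.53.

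The isoforms of complex IV known from particular tissues or conditions were dim. COX4I2, the hypoxia-responsive form of subunit 4, had 712, 604 and 767 in the PC-3 sublines, against 309 and 489 in TEM4-18, a difference of 0.76 ± 0.34 (adjusted p = 0.285, limma). The PC-3 sublines were above TEM4-18, and of the TEM4-18 sublines GS683.LALN had 606 and JD1203.Lu 299. COX6A2, the heart and muscle form, had signals from 82.0 to 334.2 over the 7 arrays, and COX6B2, a testis form, reached 301.9 in GS689.Li, against 133.3 and 121.7 in TEM4-18. COX7B2, another testis form, had 255, 171, 114, 51 and 201 in the 5 sublines, against 277 and 309 in TEM4-18, a difference of -0.83 ± 0.48 (adjusted p = 0.653). COX7A1, a muscle form, ran from 15.9 to 68.0, below the minimum for testing. COX8C, a testis form also on chromosome 14, had 21.1, 98.8, 101.1, 61.0 and 105.9, against 5.7 and 9.0, and these values lie near the added offset of 46.942 or under it. Neither was tested.

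In the ATP synthase, ATP5IF1, the inhibitor that blocks ATP hydrolysis by the enzyme, had the largest positive difference of the TEM4-18 sublines. Its signals were 11330 in GS683.LALN and 13789 in JD1203.Lu, against 7877 and 9213 on the TEM4-18 arrays, and 8241, 8739 and 9518 in the PC-3 sublines. The TEM4-18 sublines were above every other array. They exceeded TEM4-18 by 0.55 ± 0.16 (adjusted p = 0.346, limma), and the PC-3 sublines over them gave -0.50 ± 0.15 (adjusted p = 0.107). The other 2 probe sets of the gene gave 0.69 and 0.34 for the TEM4-18 sublines over TEM4-18. Neither contrast passed the threshold.

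Of the 3 genes for the c ring, ATP5MC1 had 18877, 13631, 17346, 17510 and 16644 in the 5 sublines, against 11567 and 14441 in TEM4-18, a difference of 0.37 ± 0.16 (adjusted p = 0.581, limma). GS689.Li overlapped the TEM4-18 arrays. ATP5ME, a small membrane subunit, had 22670, 16763 and 21099 in the PC-3 sublines, against 26602 and 24676 in TEM4-18, a difference of -0.36 ± 0.15 (adjusted p = 0.252). ATP5MG, with the highest mean signal of the complex, differed by 0.08 ± 0.10 in the 5 sublines. ATP5F1D, a central stalk subunit, had 3585 in GS683.LALN and 5497 in JD1203.Lu, against 5354 and 5334 in TEM4-18. The difference of -0.26 ± 0.23 in the TEM4-18 sublines rests on GS683.LALN, and without that array it was 0.04. ATP5MF was reported by a dim probe set alone, with 155, 298, 69, 44 and 257 in the 5 sublines, against 295 and 205 in TEM4-18, and its 95% interval from -1.98 to 0.66 allows large changes either way.

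Set one by one against the mean of the TEM4-18 arrays, the sublines had few members at least 2-fold away and outside both TEM4-18 arrays. There were 0 in GS672.Ug, where 8.37% of all genes met that rule, and 0 in JD1203.Lu, where 8.75% did. GS689.Li had 1 (COX6B2), with 10.2% of all genes. GS694.LAd had 2 (ATP5MF and COX7B2), with 10.6%, and GS683.LALN had 3 (ATP5MF, COX6A2 and COX7B2), with 5.71%. All of these are the dim probe sets named above. These counts rest on single arrays and have no test.

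The members as a set moved little between arrays. Their median deviation from each gene's mean over the 7 arrays was 0.07 in GS672.Ug, -0.08 in GS689.Li, 0.04 in GS694.LAd, 0.04 in GS683.LALN and 0.07 in JD1203.Lu, against -0.09 and -0.04 on the TEM4-18 arrays. All genes ran from -0.02 to 0.05 by array. GS689.Li was the subline on the same side as TEM4-18. Scaling matters at this size: with each array centred on its median, the median difference over the members was 0.03 in the 5 sublines and -0.03 in the PC-3 sublines, and with quantile normalization 0.08 and 0.09.

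**Figure D4:**
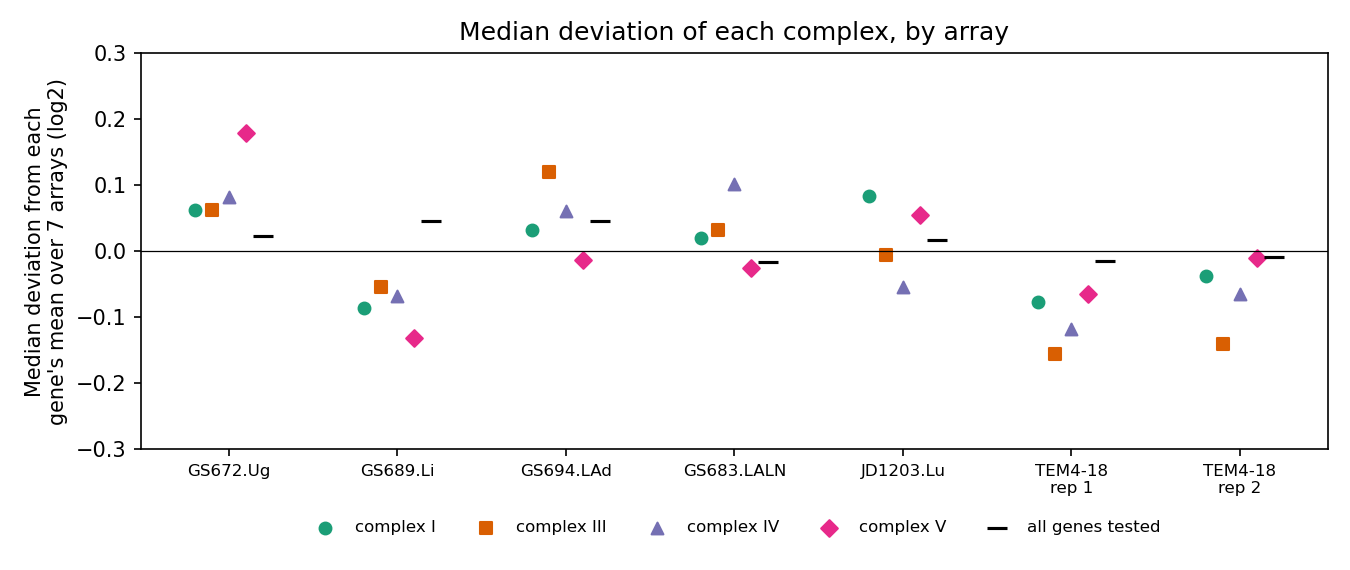
Median deviation from each gene's mean over 7 arrays (y axis, log2) for the members of each complex (symbols) and for all genes tested (bars), by array. All medians lie within 0.2 of 0, GS689.Li and both TEM4-18 arrays have every complex below 0, and complex V of GS672.Ug is the highest point.

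Genes that work with the subunits were mostly not called either. None of the 3 tested complex II subunits, the 2 cytochromes c and c1, the 18 complex I assembly factors, the 9 complex III assembly factors, the 3 carriers of ATP and phosphate, the 14 genes of supercomplexes and cristae, the 9 chaperones and proteases or the 1 uncoupling protein tested was called in any contrast. At an unadjusted p under 0.05 in the PC-3 sublines over TEM4-18 there were 3 complex I assembly factors, 3 genes of supercomplexes and cristae and 3 chaperones and proteases. So were 1 complex III assembly factor, SDHA and UCP2. Of all genes, 17.8% were under 0.05 in that contrast. The mitochondrially encoded subunits, 7 tested, had medians of 0.04 in the 5 sublines and 0.04 in the PC-3 sublines over TEM4-18, with none called (0 at an unadjusted p under 0.05), and the medians were -0.02 and -0.05 with centred arrays. ND4, a membrane arm subunit of complex I, differed by -0.09 ± 0.10 in the 5 sublines and COX3, a catalytic-core subunit of complex IV, by 0.16 ± 0.14. Of the 18 complex I assembly factors 4 had a positive difference in the PC-3 sublines over TEM4-18, with a median of -0.20, where 55.4% of all genes were positive with a median of 0.05. In the TEM4-18 sublines over TEM4-18 there were 12, with a median of 0.10. No single one passed in either contrast. UCP2, an uncoupling protein, differed by 0.64 ± 0.27 in the 5 sublines and TRAP1, a mitochondrial chaperone, by -0.41 ± 0.13. SDHA, the flavoprotein of complex II, had 24410, 26487 and 28516 in the PC-3 sublines, against 19119 and 19080 in TEM4-18, a difference of 0.47 ± 0.12 (adjusted p = 0.0771, limma).

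The other lists each had a few calls. Of 24 complex IV assembly factors, COX16 was called lower in the PC-3 sublines than in the TEM4-18 sublines (-0.77 ± 0.17). FMC1, an assembly factor of the ATP synthase F1 part and 1 of 6 tested, was called lower there by a larger difference (-1.30 ± 0.17), with 3591, 3634 and 3163 in the PC-3 sublines, against 9896 and 7423 in the TEM4-18 sublines. Among 21 tested regulators of mitochondrial transcription and biogenesis, SLIRP, which stabilises mitochondrial mRNAs, was called higher in the PC-3 sublines than in TEM4-18 (0.60 ± 0.10). HIF1A, the oxygen-regulated transcription factor subunit, was called lower in the PC-3 sublines than in TEM4-18 (-0.62 ± 0.11) and than in the TEM4-18 sublines (-0.66 ± 0.11). Of 16 genes of the tricarboxylic acid cycle, DLST, a subunit of the 2-oxoglutarate dehydrogenase complex, was called higher in both of these contrasts, with 5592, 3577 and 2916 in the PC-3 sublines, against 1504 and 1271 in the TEM4-18 sublines and 1363 and 1311 in TEM4-18. IDH2, which makes NADPH in the matrix, was called higher in the PC-3 sublines than in the TEM4-18 sublines (1.10 ± 0.24). COX16, SLIRP, HIF1A and DLST lie on chromosome 14, as NDUFB1 and ATP5MJ do. Of 75 mitochondrial ribosomal proteins, MRPL15 was called higher (1.11 ± 0.15) and MRPL1 lower (-0.58 ± 0.13) in the PC-3 sublines than in TEM4-18. Against the TEM4-18 sublines, MRPL15, MRPS14 and MRPS30 were called higher and MRPL33 lower. Most of the list lay on the lower side. In the PC-3 sublines over the TEM4-18 sublines 17 of the 75 were positive (median -0.13), against 55.1% of all genes. Over TEM4-18 there were 19 (median -0.10), against 55.4%. With quantile normalization both counts were 24.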

How the data were processed

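Total RNA of 7 PC-3-derived cultures was hybridised to 1-colour Affymetrix arrays. The deposited values are linear intensity values, which the authors made with MAS5, of a version not given in the sources used here, per the submitters' processing notes. Of 54675 probe sets, 41097 had 1 gene symbol in the platform annotation, 1801 several and 11777 none. The members used 141 probe sets, after 22 were left out by name. A further 14 with several symbols were not used, so NDUFC2, NDUFS5, NDUFS8 and UQCRH are not among the members.

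Before log2, 46.942 was added to every signal (the 20th percentile of the table). Genes whose probe set mean reached the 40th percentile (160.67) were tested with limma 3.58.1 in R 4.3.3 (lmFit, eBayes with intensity trend, 2-sided, Benjamini-Hochberg over 13640 genes). The 5 in vivo sublines were contrasted with TEM4-18 in a fit with 2 groups, and the other 3 contrasts came from 1 fit with 3 groups. The steps were tested on simulated data. RefSeq (GRCh38.p14) gave the promoters and the chromosome order, with 13620 tested genes placed.

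Genes were named by a rule: called members, the 5 highest and 5 lowest members in each contrast, the brightest of each complex, restricted isoforms, members 2-fold away in a single subline, and called genes (or the 2 of largest size) of each of 14 pathway lists and 5 marker lists. A few others, such as UQCRC2, NDUFA5 and COX7A2L, were named after their values were seen. Genes named for a large difference tend to have groups that do not overlap, so statements on overlap only describe the values. The members and lists were chosen with earlier results of these data known. The 19 alternatives covered scaling, offset, filter, probe set choice, trend, the parent of JD1203.Lu, shared parents and each array left out. The number of arrays limits the precision.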

Additional observations from a re-analysis of the deposited data

Results flagged for a closer look

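Among the 5 in vivo sublines, 1 array stood apart from the other 4 for 5 of the 72 members tested, by Dixon's gap-to-range ratio against its 95% critical value of 0.71. Chance flags about 1 in 20 groups. NDUFA5, a subunit at the quinone end of complex I, was low in JD1203.Lu (6046.0, against 11969.0 to 13563.2 in the other sublines, ratio 0.845). The second probe set of NDUFA5 is dim and did not follow it: the TEM4-18 sublines over TEM4-18 gave -0.26 on the probe set used and 0.20 on the other. COX6C was low in GS689.Li (72995.3, against 81556.6 to 83819.9, ratio 0.802). ATP5PO, the stalk subunit that confers oligomycin sensitivity, was high in GS672.Ug (57349.8, against 39418.0 to 42670.2, ratio 0.789). NDUFB4 was low in GS689.Li (49757.9, against 54981.9 to 56873.4, ratio 0.747). COX4I2 was low in JD1203.Lu (298.9, against 604.2 to 767.3, ratio 0.739).

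NDUFV2 differed between the groups of sublines in their distance from TEM4-18, by a log2 difference of -0.5382 (PC-3 sublines over TEM4-18 sublines, adjusted p = 0.0494, limma). Over the 19 alternatives that adjusted p ran from 0.0154 to 0.537, and the difference kept its sign.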

How the results depend on the processing

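The count of members called stayed at 0 under all 19 alternatives in the 5 in vivo sublines and in the TEM4-18 sublines over TEM4-18. In the PC-3 sublines over TEM4-18 it was 3, and 2 with no filter (ATP5MJ and NDUFB1) or with probe sets averaged by gene (ATP5MJ and NDUFV2). It was 0 with no intensity trend, with GS689.Li and GS694.LAd averaged, with the TEM4-18 arrays averaged and with JD1203.Lu counted among the PC-3 sublines. Leaving out 1 array gave 0 to 4. In the PC-3 sublines over the TEM4-18 sublines it was 1, and 0 with no offset, no filter, the mean of the probe sets, no trend, either average or JD1203.Lu moved, and 2 with the filter at the 60th percentile. Leaving out 1 array gave 0 to 2. The averages leave fewer arrays. For the other settings the cause was not tested. With quantile normalization that 1 was ATP5MJ in place of NDUFV2. NDUFV2 lost its call over TEM4-18 with no filter (adjusted p = 0.0556), where more genes were tested. The signs of the NDUFB1, ATP5MJ and NDUFV2 differences held throughout.

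The median over the members moved with each array centred on its median, to 0.035 in the 5 sublines, -0.030 in the PC-3 sublines over TEM4-18 and -0.11 in the PC-3 sublines over the TEM4-18 sublines. In that last contrast, leaving out 1 array gave -0.088 to 0.036. Of 748 values of named members, 697 kept sign and side of the threshold, 40 lost a call, 5 gained one and 6 changed sign. Those were ATP5F1D and ATP5MF in the TEM4-18 sublines over TEM4-18 without GS683.LALN (leaving out 1 array gave -0.57 to 0.040 and -1.69 to 0.051), UQCR11 there with the mean of the probe sets (-0.11), and, in the PC-3 sublines over the TEM4-18 sublines, COX4I2 with JD1203.Lu moved (-0.096), COX7B2 without GS683.LALN (leaving out 1 array gave -0.18 to 1.16) and NDUFB7 with the mean of the probe sets (0.092). No paired analysis was possible because replicate numbers of different groups name different lines. Dim probe sets, with signals near the offset, limit the isoforms of complex IV and ATP5MF.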

Other observations

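JD1203.Lu had low signals for 2 other genes that serve the complexes. IMMT, which organises the cristae that hold them, had 2541.8 in JD1203.Lu, against 11315.3 to 13772.9 in the other sublines and 13216.8 and 12058.4 in TEM4-18. UQCC5, an assembly factor of complex III, had 586.7, against 1523.8 to 1916.6 in the other sublines and 2167.5 and 2223.6 in TEM4-18. Both are single arrays, named after their values were seen, and no contrast called either gene.

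Neighbours of some members differed where the member itself did so less. Around ATP5F1C the 20 neighbours had a median of 0.60 in the PC-3 sublines over TEM4-18, and the member -0.07. Around NDUFS4 the median was 0.51, with 0.25 for the member, and around NDUFS6 it was 0.45, with 0.31 for the member.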
